A study of Bos taurus with 8 samples.

Results

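The comparison is between Tharparkar and crossbred cattle before heat exposure, in peripheral blood mononuclear cells (PBMCs, the lymphocytes and monocytes of blood). It uses the 4 day 0 files of the 8 in the series, which were taken by breed and day from the labels: 2 files for Tharparkar and 2 for crossbred. The Tharparkar group is 1 pool of RNA from 5 animals taken before a heat exposure of 7 days, and the crossbred group is 1 such pool. No animal in either group had yet been exposed, although the sample names carry the words heat stress at day 0 as well. Which breeds were crossed, and the sex and age of the animals, are not given in the sources used here. The other 4 files are the day 7 pools of the same breeds, and they appear below only as a second pair of libraries.

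Tharparkar is a zebu breed of the dry parts of India and Pakistan, kept for milk and draught and known for tolerance to heat. Crossbred dairy cattle in India usually carry European taurine ancestry and are generally regarded as less tolerant. A comparison before exposure gives the baseline against which a heat response in each breed is read. PBMCs are easy to sample repeatedly from live animals, and their RNA reflects both the activity of each cell type and the mix of cell types. In a bulk sample of this kind, fewer cells of a type and less RNA per cell cannot be told apart.

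The tables give Ensembl gene IDs without names. None of the 24596 IDs could be paired with a symbol (0 matched), so genes are described below by level, length and pattern, and 4 of them by ID. For the same reason the labelled cell type was not checked against marker genes, and no pathway or cell type is described.

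The 2 files of each breed were 1 library in effect. A chi-square between the files, scaled so that independent reads of 1 library give a ratio of 1, gave 0.0762 for Tharparkar and 0.0916 for crossbred. The files therefore differed by less than the sampling noise and were averaged, which leaves 1 library a side. The averaged libraries held 6701373 counts for Tharparkar and 8571528 for crossbred. With 1 pool a side the differences have no replicate check, variation between animals was not measured, and no p-value is given. By the standard deviation (SD) over genes of the log2 ratio, the Tharparkar day 0 library lay 0.50 from the crossbred day 7 library, 0.55 from the crossbred day 0 library and 0.60 from the day 7 library of its own breed. The other pairs lay 0.56 (crossbred day 0 and Tharparkar day 7), 0.69 (both crossbred) and 0.76 (both day 7) apart. The SD includes counting error, and the Tharparkar day 7 library was the shallowest, with 5201318 counts.

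Most genes were at similar levels in both breeds before heat. Levels are in CPM, counts per 1000000 after scaling, and a gene was called when its level differed by at least 1 log2 unit, which is 2-fold. Of 11711 genes with enough counts, 9242, or 78.9%, lay within 1.5-fold of each other, and the middle 50% of log2 differences ran from -0.29 to 0.28. The called genes were 363 higher in Tharparkar, 3.1% of those tested, and 459 lower, 3.92%. Large differences were few: 31 genes were higher (0.265%) and 56 lower (0.478%) by at least 4-fold, and 3 higher and 6 lower by at least 8-fold. The 95% Clopper-Pearson interval of the ratio of counts, which covers counting error only, excluded 0 on the log2 scale for 330 genes among the 363 above crossbred and for 387 among the 459 below it. That interval excluded 0 for 41% of all tested genes, and 2953 of these were within 1.5-fold, so many small differences exceed counting error.

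The balance between higher and lower genes depended on the scaling and on gene level. Higher genes were 44.2% of those called with TMM (trimmed mean of M-values) scaling, 31.3% with total counts, 32.6% with the deposited FPKM and 19.4% with the deposited TPM. Among genes with a mean of at least 10 CPM over all 4 libraries they were 55.7%. Total counts moved the median log2 difference of all tested genes by -0.11, FPKM by -0.10 and TPM by -0.21. The directions below are relative to the TMM scale.

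**Figure D1:**
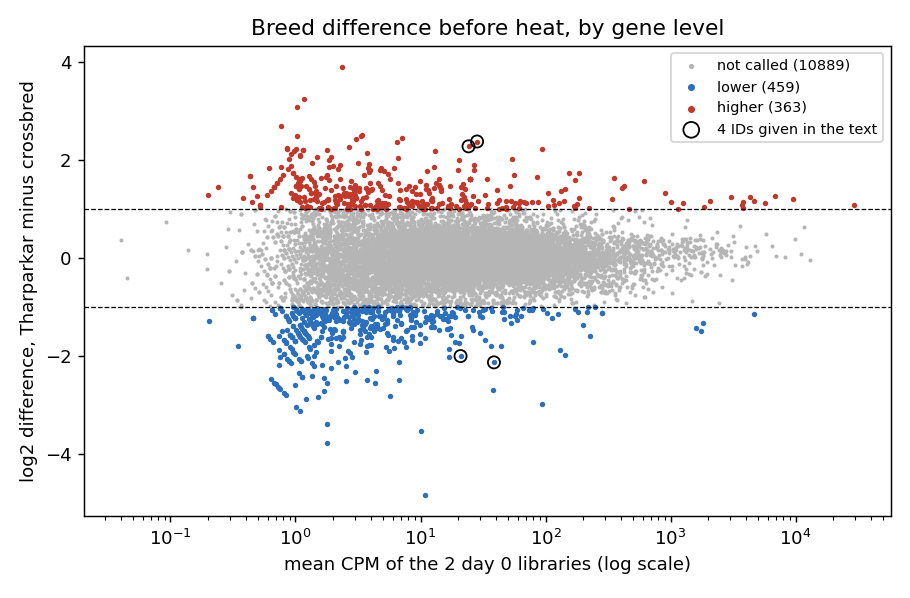
Log2 difference between Tharparkar and crossbred at day 0 (vertical axis) against the mean CPM of both day 0 libraries (horizontal axis, log scale), 1 point per tested gene. The 363 higher genes are red, the 459 lower genes blue, dashed lines mark 1 log2 unit, and circles mark the 4 IDs given in the text. Called genes lie mostly at low levels, with a further group of higher genes at the far right.

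The genes below 10 CPM held most of the calls. Of 3679 genes with a mean day 0 level of 1 to 10 CPM, 195 were higher in Tharparkar and 289 lower, or 5.3% and 7.86%. Below 1 CPM, 36 of 343 were higher and 71 lower. The SD of the log2 difference in that lowest class was 1.03, against a median of 0.996 that counting alone gives, although the prior count draws these differences towards 0. The counting interval excluded 0 for 16.6% of that class. From 10 to 100 CPM the called share was 2.92% of 5995 genes, with 94 higher and 81 lower. From 100 to 1000 CPM it was 2.41% of 1536 genes, with 23 higher and 14 lower. In these classes the SD was 0.43 and 0.39, against 0.14 and 0.06 from counting.

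**Figure D2:**
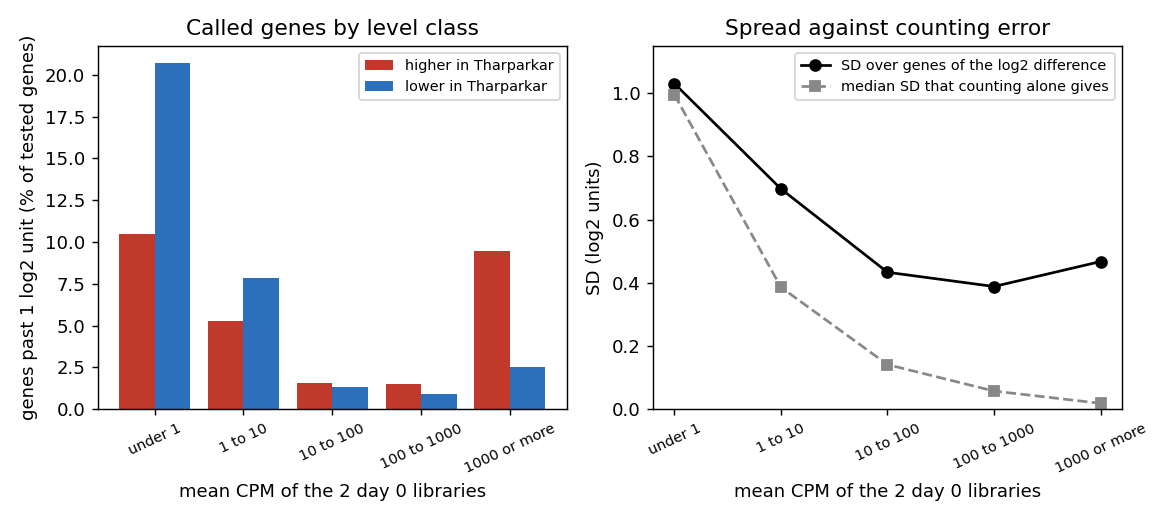
Left, the percentage of tested genes called higher (red) or lower (blue) in Tharparkar at day 0, by class of mean CPM. Right, the SD over genes of the log2 difference (black) and the median SD that counting alone gives (grey), which is 0.996 in the lowest class and 0.02 in the highest.

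Among the most abundant genes, more were higher than lower in Tharparkar on the TMM scale, and fewer with TPM. Of 158 genes at 1000 CPM or more, 15 were higher in Tharparkar, 9.49% against 3.1% of all tested genes, and 4 were lower, 2.53% against 3.92%. The log2 differences of the 15 ran from 1.003, just past the threshold that chose them, to 1.27. The median level of the 15 was 5086 CPM in Tharparkar and 2402 CPM in crossbred, and together they took 10.5% of counts in Tharparkar and 5.20% in crossbred. With TPM 2 genes of this class were called higher and 6 lower, and with total counts 10 and 5. The 4 lower genes had medians of 972 and 2587 CPM, and differences from -1.49 to -1.14.

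A few genes accounted for much of the difference in composition. In all, 11.5 percentage points of counts were placed on different genes in the 2 libraries. The 10 genes with the largest gain in Tharparkar held 5.01 of these points, and they took 10.5% of counts there against 5.47% in crossbred. The gene with the largest gain, 1545 bases long and the most abundant in both libraries, took 3.69% of counts in Tharparkar (95% Wilson interval 3.68 to 3.71) and 1.90% in crossbred (1.89 to 1.91). Losses were spread more widely. The 10 genes with the largest loss held 1.54 of the points, and the first of them, 1544 bases long, took 0.272% of counts in Tharparkar (0.268 to 0.276) against 0.650% in crossbred (0.645 to 0.655).

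The 363 higher genes took 11.7% of Tharparkar and 5.73% of crossbred counts, most of it the 10.5% and 5.20% of the 15 abundant genes, with median levels of 6.46 and 2.43 CPM. The 459 lower genes took 0.860% and 2.30%, with medians of 1.36 and 4.11 CPM. Most of the lower genes were therefore weakly expressed in both breeds. These levels describe genes chosen by the same values.

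Differences varied with gene length. In the shortest 20% of tested genes, 143 to 1124 bases, 4.53% were higher in Tharparkar and 4.70% lower. In the longest 20%, from 3127 bases, 2.39% were higher and 4.01% lower. The median log2 difference went over 5 classes of equal size from 0.08 in the shortest through 0.02, 0.005 and -0.01 to -0.06 in the longest. With total counts the shortest and longest classes had medians of -0.04 and -0.17, so the sign for short genes follows the scaling. The shortest class lay above the longest under every scaling run. Among genes with a mean day 0 level of at least 10 CPM the medians of the shortest and longest classes were 0.11 and -0.05. On the TMM scale at day 7 the 5 classes of all tested genes had medians of 0.23, 0.04, -0.02, -0.10 and -0.14. Their order by length was the same as at day 0.

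Among genes under 300 bases the calls were mostly higher in Tharparkar and mostly in genes with fractional counts. Of 50 tested, 18 were higher, 36% against 3.1% of all tested genes, and 2 were lower, 4% against 3.92%. The 18 had a median log2 difference of 1.62 and median levels of 37.9 CPM in Tharparkar and 12.1 CPM in crossbred. Whole counts in all day 0 files were found for 25 of the 50, but for only 2 of the 18. Fractional counts mean that ambiguous reads were shared out among related genes, so the other 16 values are uncertain. More generally, 11.3% of 1180 genes with fractional counts were called, against 6.54% of 10531 genes with whole counts.

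Hardly any gene was seen in 1 breed alone. With at most 3 counts in one library and at least 20 in the other, 1 gene was seen in Tharparkar and 17 in crossbred, 0.00407% and 0.0691% of all 24596 listed. The single Tharparkar gene had 29.11 counts there and 0.47 in crossbred, and its counts are fractional. Of the 17 crossbred genes, 12 had whole counts, their median was 24.5 counts, and the highest had 184.56 counts against 2.97 in Tharparkar, also fractional. The Tharparkar library is the shallower one, and after thinning both to the same depth 7 genes met the criterion on the crossbred side and 3 on the Tharparkar side. At day 7, 10 of the 17 and the single Tharparkar gene had more than 3 counts in both breeds, and 1 of the 17 met the criterion again on the crossbred side, with 20.75 counts against 0.

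A set of 5527 genes had at least 20 CPM in the higher day 0 library and whole counts in all 4 day 0 files, so that no reads were split. Called genes could enter it through the library where they are high. Of this 20 CPM set 83 were higher in Tharparkar, or 1.5%, and 64 lower, or 1.16%. The balance turned with the scaling, to 52 higher and 110 lower with total counts, 48 and 81 with FPKM, and 28 and 137 with TPM. The 12 with the largest rise lay between 1.59 and 2.38 log2 units above crossbred, with median levels of 66.5 and 16.5 CPM. The 12 with the largest fall lay between 1.57 and 2.13 log2 units below it, with medians of 14.9 and 53.7 CPM. Their lengths were ordinary, with medians of 2411 and 1727 bases.

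The ID with the largest rise in this set was ENSBTAG00000001864, a gene of 2231 bases with 1 listed transcript. Its files held 301 and 294 counts in Tharparkar and 76 and 79 in crossbred. That is 47.7 CPM against 8.96 CPM, a log2 difference of 2.38 (counting interval 2.04 to 2.79). The second, ENSBTAG00000006843, of 4050 bases, had 252 and 251 counts in Tharparkar and 73 and 67 in crossbred. Its levels were 40.3 and 8.09 CPM, a log2 difference of 2.28 (1.93 to 2.72). In both, the Tharparkar library was the higher one.

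The ID with the largest fall was ENSBTAG00000002340, of 1474 bases, with 88 and 89 counts in Tharparkar and 548 and 545 in crossbred. Its levels were 14.2 and 63.2 CPM, a log2 difference of -2.13 (-2.50 to -1.83). The second, ENSBTAG00000018052, of 5909 bases, had 50 and 52 counts in Tharparkar and 285 and 297 in crossbred. Its levels were 8.18 and 33.6 CPM, a log2 difference of -2.003 (-2.50 to -1.61). No gene name is given for these 4 IDs in the tables used here.

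The day 7 pools share no reads with the day 0 pools and were taken after the heat exposure. They show whether a breed difference seen before heat was present again. For most called genes it was not, and many differences had the other sign. Of the 363 genes higher in Tharparkar at day 0, 88 were above crossbred at day 7, or 24.2%, against 50.2% of all tested genes. Of the 459 lower genes, 328 were above crossbred at day 7, or 71.5%. At least 1 log2 unit in the same direction was seen again in 16 higher genes, 4.41% against 5.08% of all tested genes. It was seen again in 33 lower genes, 7.19% against 9.79%. The opposite direction by at least 1 log2 unit was seen in 127 higher genes, 35% against 9.79%, and in 159 lower genes, 34.6% against 5.08%.

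Of the 5527 genes of the 20 CPM set 55.3% were above crossbred at day 7. Of the 83 higher genes 68 were below crossbred at day 7, 34 of them by at least 1 log2 unit, 41% against 4.76% of the whole set. Of the 64 lower genes 60 were above crossbred at day 7, 36 of them by at least 1 log2 unit, 56.2% against 2.48%. None of these 147 genes (0) passed 1 log2 unit in the same direction on both days. With total counts and with TPM 1 such gene passed. The opposite direction by at least 1 log2 unit was seen with total counts in 29 of 52 higher and 34 of 110 lower genes. With FPKM it was seen in 23 of 48 and 27 of 81, and with TPM in 14 of 28 and 31 of 137. With 20 CPM required of the mean of all 4 libraries, a filter that also uses the day 7 levels, 75 genes were higher and 44 lower at day 0. Of these, 60 and 43 had the opposite sign at day 7, 33 and 28 by at least 1 log2 unit, and none (0) passed it in the same direction. Among all 5264 genes under this filter, 4.83% were at least 1 log2 unit below crossbred at day 7 and 2.32% above. The median log2 difference went from 1.16 at day 0 to -0.74 at day 7 in the 83 genes, and from -1.16 to 1.07 in the 64.

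**Figure D3:**
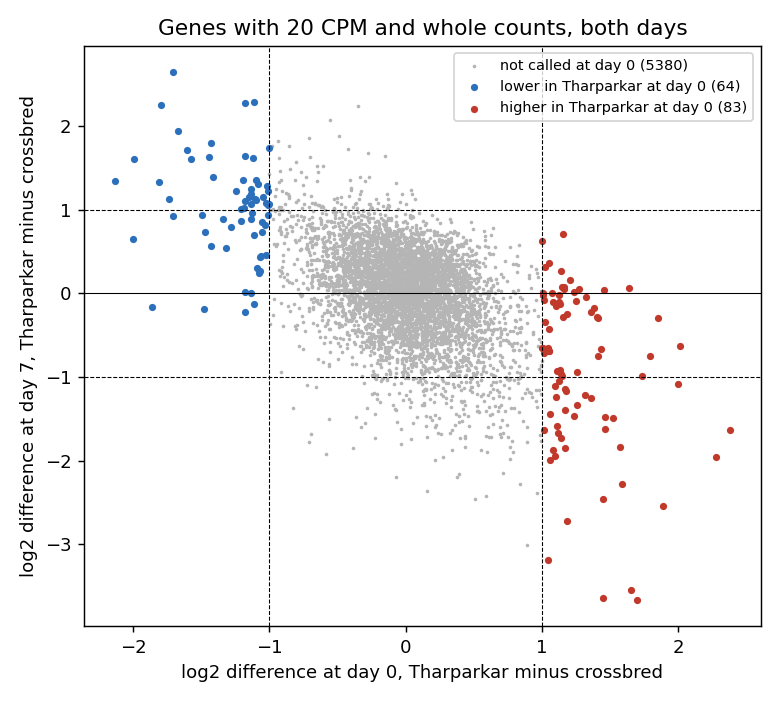
Log2 difference between Tharparkar and crossbred at day 7 (vertical axis) against day 0 (horizontal axis) for the 5527 genes of the 20 CPM set, with dashed lines at 1 log2 unit. The 64 genes lower at day 0 (blue) lie mostly in the upper left and the 83 higher genes (red) mostly in the lower right, and no called gene lies in the upper right or lower left corner beyond the dashed lines.

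The levels in all 4 libraries show the shape of this pattern. For the 83 higher genes the median was 73.1 CPM in Tharparkar and 29.9 in crossbred at day 0, and 40.2 and 73.3 CPM at day 7. For the 64 lower genes it was 21.0 and 53.8 CPM at day 0, and 40.7 and 19.7 CPM at day 7. Tharparkar before heat and crossbred after heat were at like levels in both sets. The 4 IDs followed it: ENSBTAG00000001864 had 10.8 CPM in Tharparkar and 34.0 in crossbred at day 7, a log2 difference of -1.64, and ENSBTAG00000006843 had 12.2 and 48.2 CPM, a difference of -1.95. ENSBTAG00000002340 had 28.0 and 10.8 CPM, a difference of 1.35, and ENSBTAG00000018052 had 14.9 and 9.40 CPM, a difference of 0.65. Whether the change of sign comes from the heat exposure, the animals, the pools or the labelling cannot be told apart with 1 pool per breed and day.

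**Figure D4:**
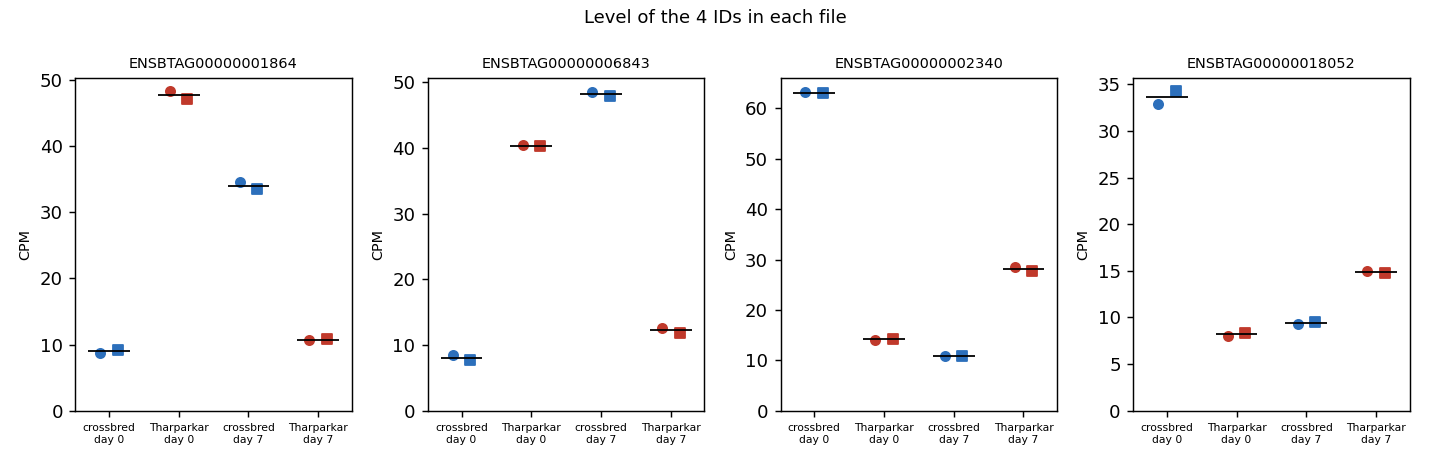
CPM of the 4 IDs in each of the 8 files, crossbred in blue and Tharparkar in red, with circles for replicate 1, squares for replicate 2 and a line at the average of the files. For every ID the breed that is higher at day 0 is the lower one at day 7.

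The abundant genes are read against their own class, since 134 of the 158 genes at 1000 CPM or more were above crossbred at day 7, with a median log2 difference of 0.42. At day 0 the median of this class was 0.14. Of the 15 genes at 1000 CPM or more that were higher in Tharparkar at day 0, 9 were above and 6 below crossbred at day 7, with a median of 0.01, which is below that of the class. Their share of counts was 5.80% in Tharparkar and 6.48% in crossbred at day 7, so the excess of the Tharparkar day 0 library was not seen there. All 4 lower genes of this class were above crossbred at day 7, by 0.89 to 1.81 log2 units. The 18 short higher genes had a median difference of -0.49 at day 7, with 3 above and 15 below crossbred. All 50 tested genes under 300 bases had a median of 0.04, with 26 above and 24 below.

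The 16 higher and 33 lower genes past 1 log2 unit on both days were no larger a share than among all tested genes, as given above. Their levels were low, with medians of 2 and 1.91 CPM in the higher day 0 library, and 1 of the 49 reached 20 CPM in any library. The 16 higher genes had differences from 1.01 to 3.24 at day 0 and from 1.01 to 3.30 at day 7. The 33 lower genes had differences from -3.78 to -1.02 at day 0 and from -5.34 to -1.02 at day 7. Counting intervals excluded 0 on both days for 10 and 9 of them.

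The files of a breed share most of their reads, so values from single files describe the tables and not the stability of a difference. Over the 4 pairings of a single Tharparkar with a single crossbred file, the log2 difference of a tested gene ranged over a median of 0.0674. Of the called genes, 291 of 363 higher and 382 of 459 lower passed 1 log2 unit in every pairing, and the others missed it in at least 1. For 22 called genes the range was over 1 log2 unit, and 17 of these had fractional counts.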

How the data were processed

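Per the labels' protocols, RNA of 5 animals per breed and day was pooled and libraries were made with an RNA kit for Illumina sequencers. Each file is 1 gene table. The submitters' processing notes name Bowtie2 and RSEM, with no role or version; genome build, annotation release and filters are not given in the sources used here. Per the file headers, the authors deposited expected counts (estimated reads per gene, with ambiguous reads split), TPM, FPKM, and lengths in bases, the other unit used here. Reads of a zebu breed and of crossbreds were counted on 1 set of gene models, which can lower counts of genes that differ in sequence; this was not tested.

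Expected counts of the 2 files of a group were averaged. Genes were filtered with edgeR 4.0.16 (filterByExpr over the 4 averaged libraries), scaled with TMM, and put on a log2 CPM scale with a prior count of 2. TMM factors were 0.930 for Tharparkar and 1.01 for crossbred at day 0. Counts were rounded for Clopper-Pearson intervals only, and taken as whole within 0.01. The replicate check took genes whose summed count over a group's files reached 20, which were 10840 for Tharparkar and 11342 for crossbred, with a limit of 1.5. The script steps were tested on simulated data. Intervals cover counting error only, since reads carry no molecular identifiers.

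The members, lists and tests were chosen with earlier results of these data known. The rule for named genes asked for symbols, and without one for the 2 IDs with the largest rise and the 2 with the largest fall among genes with at least 20 CPM and whole counts. The 39 lists of gene symbols could not be evaluated, because none of their 997 symbols occurs in the tables (0 matched). Promoter motifs were not searched, for the same reason. The bounds of the level and length classes, the limit of 300 bases and the way day 7 values were counted were chosen after the files were seen. Alternatives were DESeq2 1.42.0 size factors, total counts with and without the 100 most abundant genes, TPM and FPKM as log2(value + 1), other filters, a prior count of 0.5, whole counts, thinning, and leaving out each file.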

Additional observations from a re-analysis of the deposited data

Results flagged for a closer look

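The sign of the breed difference changed between the days for several results, each with 1 pool per breed and day, and none of these changes was tested. Of the 363 genes higher in Tharparkar at day 0, 127 were at least 1 log2 unit lower at day 7, 35% against 9.79% of all tested genes. Of the 459 lower genes 159 were at least 1 log2 unit higher, 34.6% against 5.08%. Among genes with at least 20 CPM in the higher day 0 library and whole counts these counts were 34 of 83 and 36 of 64. That is 41% against 4.76% of all genes of that set, and 56.2% against 2.48%. The log2 difference at day 7 was -1.64 for ENSBTAG00000001864 and -1.95 for ENSBTAG00000006843, both higher at day 0. It was 1.35 for ENSBTAG00000002340 and 0.65 for ENSBTAG00000018052, both lower at day 0. The gene with the largest gain in share at day 0 had a difference in share, Tharparkar minus crossbred, of -0.235 percentage points at day 7. For the gene with the largest loss this difference was 0.275 points. Both are shares of unscaled counts. The TMM factors at day 7 were 0.974 for Tharparkar and 1.09 for crossbred, which raises Tharparkar relative to crossbred. On the TMM scale 7 of the 10 genes with the largest gain were above crossbred at day 7 and 3 below, with a median log2 difference of 0.02. Divided by the TMM factors, the share of the gene with the largest gain was slightly larger in Tharparkar than in crossbred at day 7. Its sign therefore changed for unscaled shares only, and not on the TMM scale.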

How the results depend on the processing

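No paired analysis was possible because the files of a group are 1 library, so no comparison comes from a test. No log2 difference of the 4 IDs changed sign on either day in any setting run, but at day 0 ENSBTAG00000006843 was 1.69 with TPM and 1.78 with FPKM, ENSBTAG00000001864 1.96 with TPM and ENSBTAG00000018052 -1.57 with FPKM, outside their counting intervals. A value counted as unchanged within 1.5 times (counts), within 0.1 (medians) or on the same side of the limit (replicate check). Log2 differences had to stay within the 95% counting interval, and shares within a 95% binomial interval over genes, which treats genes as independent. In all, 312 of 355 values under an alternative stayed unchanged by these limits. All of the values under DESeq2 size factors (23 of 23), a prior count of 0.5 (23 of 23) and day 0 libraries alone (12 of 12, added after seeing the data) did. The median of the shortest genes did change sign, from 0.08 to -0.04 with total counts and FPKM and -0.16 with TPM. Higher and lower genes numbered 581 and 787 without a filter, 123 and 98 with a mean of at least 10 CPM, and 134 and 277 with FPKM, and higher genes 97 with TPM. The higher share was 31.3% with total counts, 40.6% without the 100 most abundant genes, 19.4% with TPM, 32.6% with FPKM and 55.7% with at least 10 CPM. The percentage of higher genes above crossbred at day 7 was 18.0 with total counts, 14.4 with TPM, 16.4 with FPKM and 18.7 with at least 10 CPM. For lower genes it was 79.8 with FPKM, 60.1 without a filter and 86.7 with at least 10 CPM. Genes seen in Tharparkar alone were 0 with whole counts and 3 after thinning, and in crossbred alone 7 after thinning. Leaving out 1 file gave between 1 and 2 for Tharparkar, 2 without Tharparkar replicate 1. Genes under 300 bases called higher were 2 with whole counts and 32 without a filter. The filters change which genes are tested, and for the other settings the cause was not tested. Medians of gene lists were not run, since no list could be evaluated. Counting error is largest below 1 CPM.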
